A study of Homo sapiens with 6 samples.

Results

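The genes described here are 8 genes of fat oxidation, fatty acid and acetate activation, and the PPAR nuclear receptors: CPT1A, ACSL5, ACSS2, FABP1, PPARA, PPARG, HADH and ME1. They were found by gene symbol among the 22496 symbols listed in at least 1 library, and all 8 were listed. LoVo, a human line grown from a colon adenocarcinoma, gave 3 poly-A RNA libraries of the control genotype, labelled non-target, and 3 of the SHARPIN knockout, each called here by its replicate number. The series asks how loss of SHARPIN, a subunit of the linear ubiquitin ligase complex, alters gene expression. Both groups are the same line with no other treatment in the labels. The sources used here do not say whether the knockout is 1 clone or a pool of edited cells, or whether the replicates are separate cultures, so the p-values rest on a spread among libraries that may be technical.

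Cells burn fatty acids after first joining them to coenzyme A, a step done by the acyl-CoA synthetases. CPT1 enzymes then hand the acyl group to carnitine for entry into mitochondria, where beta-oxidation shortens it to acetyl-CoA, which liver and gut epithelium can turn into ketone bodies. PPAR alpha, delta and gamma are nuclear receptors that bind fatty acids, pair with RXR on DNA and turn on many of these genes. In the colon, PPARG is abundant in differentiated epithelium, and colonocytes draw much of their energy from oxidising short-chain fatty acids.

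Values are FPKM, fragments scaled by transcript length and by the mapped total of the library, so levels can be compared between genes. Each library listed 19068 to 20158 genes, on an estimated 21100000 to 22500000 fragments. The targeted gene, SHARPIN, stood at 11.9 to 13.9 FPKM in non-target and 7.55 to 18.0 FPKM in the knockout libraries, which overlap, so its transcript does not check the labels. Epithelial genes expected of LoVo were abundant, with EPCAM at 132 to 198 FPKM and the intestinal factor CDX2 at 16.0 to 24.6 FPKM over all 6. Of 12 colon epithelial markers, 2 rose (KRT19 and KRT20) and 5 fell (VIL1, CDX1, CDH17, GPA33 and LGALS4). From non-target to knockout the mean went from 46.7 to 1.48 FPKM in GPA33, from 42.45 to 2.26 in LGALS4 and from 57.3 to 5.78 in CDH17. It went from 259.6 to 710.3 FPKM in KRT19 and from 3.19 to 17.1 in KRT20. In bulk RNA, fewer cells of a type and less RNA per cell cannot be told apart. Non-target replicate 1 stood apart in fibroblast markers. Summed over 9 such markers, the level ran from 7.78 to 20.2 FPKM in non-target and from 0.234 to 0.812 FPKM in knockout. The collagens COL1A1 and COL1A2 stood at 6.60 and 6.12 FPKM in non-target replicate 1, against at most 0.290 and 0.139 FPKM in the other 5 libraries. LUM, the 1 marker of that list high enough to test, fell. It stood at 5.03, 7.52 and 7.45 FPKM in non-target and 0.385, 0.199 and 0.151 FPKM in knockout libraries 1, 2 and 3. LUM made up most of the summed level in non-target replicates 2 and 3. In non-target replicate 1, where COL1A1 and COL1A2 were high, LUM was the lowest of its group. Of the adipocyte markers ADIPOQ was unlisted in every library and CIDEC, the 1 high enough to test, fell. Of the leukocyte markers CD3D, CD3E and MS4A1 were unlisted and PTPRC was at most 0.036 FPKM, while CD68, a lysosomal protein also made by epithelial cells, was at 19.0 to 35.0 FPKM. Endothelial and hepatocyte markers each stood at less than 1 FPKM. The part of these markers in the results below was not tested. Without non-target replicate 1, PPARG, ACSL5 and CPT1A still fell (log2 fold changes -1.38, -1.27 and -0.89) and ACSS2 rose (1.56), while ME1 did not pass (-0.62, adjusted p = 0.0732). Non-target replicates 2 and 3 were the most alike pair of a group, with a Pearson r of 0.997 across genes against 0.946 to 0.980 for the other 5 pairs.

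The promoter sequences of 5 genes are shown because these are the genes that passed the test below, 4 in one direction and 1 in the other. Each is the 250 bases before a RefSeq start (GRCh38.p14), read on the gene's own strand, from a table that matched all 8 genes. The windows lie at chr3:12287118-12287367 (plus strand, the first of 6 annotated PPARG starts), chr10:112375018-112375267 (plus, the first of 2), chr11:68844278-68844527 (minus, the 1 start), chr6:83431052-83431301 (minus, the 1 start) and chr20:34874739-34874988 (plus, the first of 2). Where a gene has several starts the first is shown, a choice made after the matches were seen, and which start LoVo cells use was not tested. Capitals mark AGGTCA, the half-site that nuclear receptors recognise, and TGACNNNGC, the core of the antioxidant response element bound by NRF2, on either strand.
PPARG: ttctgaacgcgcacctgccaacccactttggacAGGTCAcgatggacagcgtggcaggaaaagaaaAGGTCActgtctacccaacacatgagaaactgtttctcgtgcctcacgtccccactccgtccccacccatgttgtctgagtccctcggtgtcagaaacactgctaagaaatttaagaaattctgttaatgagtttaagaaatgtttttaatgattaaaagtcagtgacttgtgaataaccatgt
ACSL5: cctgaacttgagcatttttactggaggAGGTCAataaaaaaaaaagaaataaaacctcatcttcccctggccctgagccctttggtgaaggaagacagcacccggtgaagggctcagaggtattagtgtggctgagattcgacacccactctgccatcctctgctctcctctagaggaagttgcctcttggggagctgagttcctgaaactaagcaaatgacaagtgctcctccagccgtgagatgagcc
CPT1A: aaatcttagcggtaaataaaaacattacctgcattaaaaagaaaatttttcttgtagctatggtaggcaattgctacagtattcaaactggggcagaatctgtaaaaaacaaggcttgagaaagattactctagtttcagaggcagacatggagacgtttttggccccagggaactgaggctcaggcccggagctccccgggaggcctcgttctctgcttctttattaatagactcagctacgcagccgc
ME1: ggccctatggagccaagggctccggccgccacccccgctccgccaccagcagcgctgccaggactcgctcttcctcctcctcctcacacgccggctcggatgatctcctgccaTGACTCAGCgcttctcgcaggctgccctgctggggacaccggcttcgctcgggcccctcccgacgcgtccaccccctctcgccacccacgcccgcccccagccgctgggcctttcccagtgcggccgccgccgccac
ACSS2: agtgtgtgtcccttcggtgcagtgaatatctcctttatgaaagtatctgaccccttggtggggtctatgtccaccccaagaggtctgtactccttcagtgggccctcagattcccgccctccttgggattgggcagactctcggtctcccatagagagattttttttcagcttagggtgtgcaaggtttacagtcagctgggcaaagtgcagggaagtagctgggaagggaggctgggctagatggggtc
The window before the first PPARG start held AGGTCA at 217 to 212 and again at 184 to 179 bases before the start, and the ACSL5 window held it at 223 to 218. The ME1 window held TGACTCAGC at 137 to 129 bases before the start. The windows of CPT1A and ACSS2 held no match. Of the windows not shown, the second ACSL5 window held TGACNNNGC on the other strand at 154 to 146 bases before its start, and the FABP1 window held AGGTCA on the other strand at 68 to 63. A pair of overlapping PPARG windows held the same AGGTCA, at 14 to 9 and 24 to 19 bases before their starts. The other windows held no match. Of 35116 promoter windows of the same length, 12.1% held AGGTCA and 10.9% held TGACNNNGC. The consensus PPAR element, AGGTCANAGGTCA, contains the half-site at both ends. An exact match to it was in 0.0171% of windows (6 of 35116) and in none of the 17 windows of the 8 genes. A match so rare would seldom be found in 17 windows, so its absence says little, and looser forms were not searched. The sterol response element TCACNCCAC was in 0.883% of windows and in none of the 17, the ACSS2 windows included. No motif match or lack of one shows whether a factor binds, and the files do not say which start LoVo cells use.

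PPARG, ACSL5, CPT1A and ME1 fell in the knockout libraries and ACSS2 rose. Of the 8 genes, 7 were high enough to test, and of these 4 fell, 1 rose and 2 did not pass (limma, adjusted p below 0.05). Among all 13092 genes tested 5.93% fell and 6.26% rose, beside 57.1% (4 of 7) and 14.3% (1 of 7) of these genes. The 8 genes were chosen with earlier results of these data known, so this difference in shares is a description and not independent evidence. With each library rescaled to the same total (TPM), which also changes which genes pass the filter, 963 genes fell and 670 rose of 14575 tested, against 777 and 820 of 13092 here. The median log2 fold change of the 7 was -0.72, against 0.02 over all genes tested. Knockout values lay below every non-target value in 6 of the 7 (85.7%), against 15.7% of all tested genes, and above in ACSS2. The groups thus did not overlap in any of the 7, against 32.1% of all tested genes. A fit with the replicate number as a block had 6 fall and 1 rise, against 11.8% and 13.5% of all genes in that fit.

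**Figure D1:**
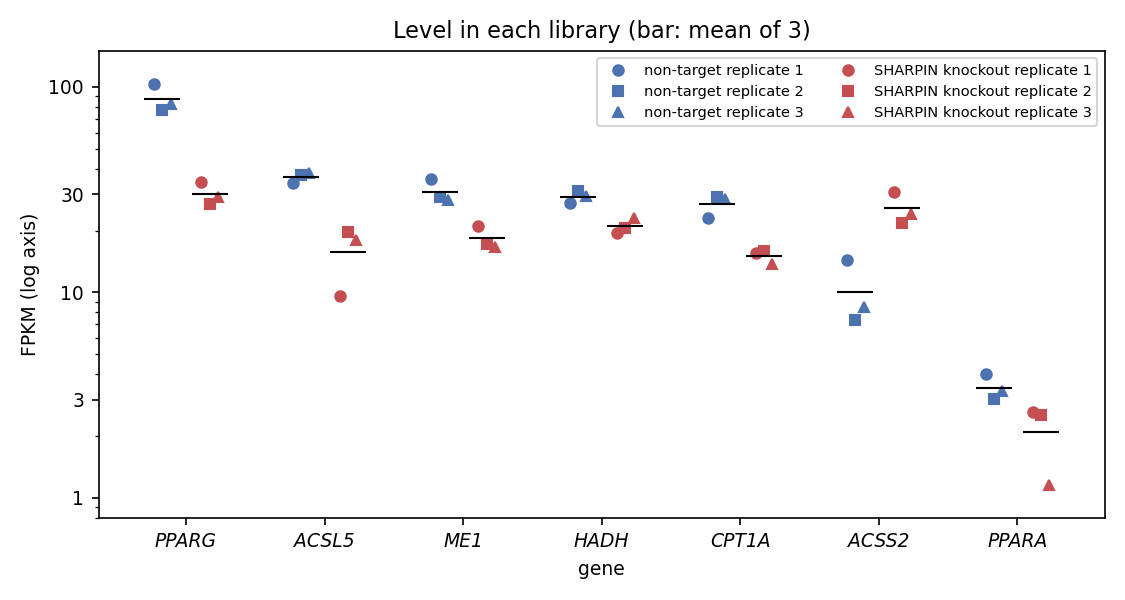
Level of the 7 tested genes in each library, in FPKM on a log axis, with blue points for non-target, red for SHARPIN knockout, a marker shape for each replicate number and a bar at the mean of 3. The groups do not overlap in any of the 7, and ACSS2 is the gene in which the red points lie above the blue ones.

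PPARG was the most abundant of the 8 in both groups and changed most among them. PPARG (chromosome 3, 12328867 to 12475855, plus strand, GRCh37) encodes the receptor that drives fat storage in adipocytes and is high in colon epithelium. It stood at 103, 77.5 and 82.5 FPKM in non-target libraries 1, 2 and 3, and 34.5, 27.0 and 29.2 FPKM in knockout libraries 1, 2 and 3. The groups lay far apart, and replicate 1 was the highest of each group. The mean went from 87.8 ± 13.7 to 30.2 ± 3.85 FPKM (SD, n = 3). This was a change of -1.50 ± 0.18 on the log2 scale (SE; limma, adjusted p = 0.000606). Of the 13092 tested genes, 200 had a lower log2 fold change. PPARG stayed past the threshold under all 16 alternatives, with log2 fold changes from -1.61 to -1.38. Its level in non-target cells lay above that of 95.7% of tested genes, and in knockout cells above 84.2%.

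PPARA (chromosome 22, 46546424 to 46639652, plus strand), the receptor that governs fat oxidation and ketone body synthesis in liver, was the least abundant of the 7 tested genes of the set. It stood at 3.99, 3.04 and 3.30 FPKM in non-target and 2.63, 2.53 and 1.16 FPKM in knockout libraries 1, 2 and 3. Knockout replicate 3 was the lowest, and the other knockout libraries lay just under the lowest non-target value. The log2 fold change was -0.55 ± 0.23 (SE; adjusted p = 0.166), which did not pass, while a replicate block gave adjusted p = 0.0237. Without knockout replicate 3 the change was -0.31 (adjusted p = 0.325).

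The remaining receptor of the family, PPARD, widely expressed in gut, moved the other way. It stood at 6.22, 6.75 and 6.97 FPKM in non-target and 16.3, 11.1 and 10.7 FPKM in knockout libraries 1, 2 and 3, and rose (log2 fold change 0.82 ± 0.19 SE, adjusted p = 0.0215). The call was lost under 6 alternatives, with adjusted p up to 0.0751, among them leaving out any 1 of the 3 non-target libraries or knockout replicate 2. The summed level of the 3 receptors went from 97.9 ± 13.9 to 45.0 ± 7.27 FPKM (SD, n = 3). PPARG made up 89.6% ± 1.25 of that sum in non-target and 67.4% ± 3.38 in knockout, and PPARD 6.91% ± 1.25 and 28.0% ± 2.29. Of 15 tested PPARs, RXRs and coregulators, 1 rose (PPARD), 1 fell (PPARG) and 13 did not pass, with a median log2 fold change of -0.28. Over all tested genes 6.26% rose and 5.93% fell. With the block 7 of the list fell and 1 rose, against 11.8% and 13.5% of all genes in that fit. The coactivator PPARGC1A was too low to test, at 0.035 to 0.27 FPKM.

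**Figure D2:**
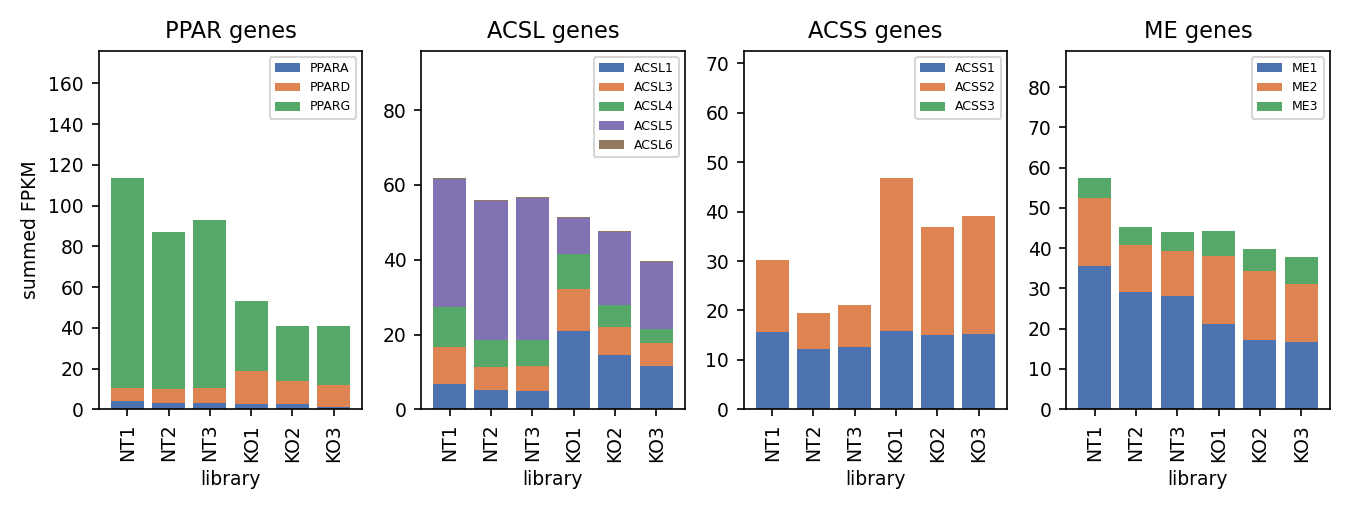
Summed FPKM of the PPAR, ACSL, ACSS and malic enzyme (ME) genes in each library, 1 stacked bar per library (NT non-target, KO SHARPIN knockout, with the replicate number), each panel with its own axis from 0. PPARG fills 67.4% of the PPAR bar on average in knockout against 89.6% in non-target, and the ACSL1 segment is larger and the ACSL5 segment smaller in knockout.

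Among the genes that activate acids, ACSL5 fell and ACSS2 rose. ACSL5 (chromosome 10, 114133874 to 114188137, plus strand) is the acyl-CoA synthetase for long chains that is typical of intestinal epithelium. It stood at 34.2, 37.2 and 38.1 FPKM in non-target and 9.61, 19.6 and 18.0 FPKM in knockout libraries 1, 2 and 3. Knockout replicate 1 was far below the other knockout libraries, and the groups were well apart without it. The mean went from 36.5 ± 2.03 to 15.8 ± 5.38 FPKM (SD, n = 3). This was a change of -1.22 ± 0.25 on the log2 scale (SE; limma, adjusted p = 0.0104), and -0.92 without knockout replicate 1. ACSL5 stayed past the threshold under all 16 alternatives, with adjusted p up to 0.0377. Its exons overlap those of ZDHHC6 on the other strand, and whether the counting used strand is not given, so reads in the shared part are uncertain.

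ACSL1, a synthetase of the same family, rose from 6.82, 5.10 and 4.94 FPKM in non-target to 21.0, 14.6 and 11.6 FPKM in knockout libraries 1, 2 and 3 (log2 fold change 1.31 ± 0.23 SE, adjusted p = 0.00458), and passed under all 16 alternatives. ACSL3 and ACSL4 did not pass, with log2 fold changes of 0.10 ± 0.24 and -0.41 ± 0.29 (SE). ACSL5 supplied 63.1% ± 6.71 of the summed ACSL level in non-target and 35.1% ± 14.4 in knockout, and ACSL1 9.63% ± 1.22 and 33.6% ± 6.26. In knockout replicate 1 ACSL1 stood above ACSL5, while in knockout replicates 2 and 3 ACSL5 was still the higher. The summed level of the family was 58.1 ± 3.27 FPKM in non-target and 46.2 ± 6.03 FPKM in knockout.

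ACSS2 (chromosome 20, 33459949 to 33515765, plus strand), the cytosolic and nuclear enzyme that turns acetate into acetyl-CoA and a known SREBP target, stood at 14.4, 7.37 and 8.51 FPKM in non-target. It stood at 31.0, 21.9 and 24.0 FPKM in knockout libraries 1, 2 and 3. Replicate 1 was the highest library of each group, and the lowest knockout value still exceeded the highest non-target value. The mean went from 10.1 ± 3.79 to 25.6 ± 4.74 FPKM (SD, n = 3). This was a change of 1.30 ± 0.25 on the log2 scale (SE; limma, adjusted p = 0.00746). Of all tested genes 242 had a higher log2 fold change. ACSS2 passed under all 16 alternatives, with values from 1.12 to 1.56. The mitochondrial acetate enzyme ACSS1 did not pass (13.5 ± 1.91 and 15.3 ± 0.471 FPKM, adjusted p = 0.551), so ACSS2 went from 41.9% ± 5.30 to 62.3% ± 3.47 of the summed ACSS level. Of 14 tested genes of fatty acid and acetate activation, 2 rose (ACSL1 and ACSS2), 1 fell (ACSL5) and 11 did not pass, with a median of 0.06. Over all tested genes 6.26% rose and 5.93% fell. With the block 3 of the list rose and 2 fell, against 13.5% and 11.8% of all genes in that fit.

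CPT1A fell by less than PPARG or ACSL5. CPT1A (chromosome 11, 68522088 to 68611878, minus strand), the carnitine palmitoyltransferase that sets the pace of fatty acid entry into mitochondria, stood at 23.1, 29.1 and 28.4 FPKM in non-target and 15.6, 15.9 and 13.7 FPKM in knockout libraries 1, 2 and 3. Non-target replicate 1 was the lowest of its group and lay above all knockout libraries. The mean went from 26.9 ± 3.30 to 15.1 ± 1.20 FPKM (SD, n = 3). This was a change of -0.79 ± 0.16 on the log2 scale (SE; limma, adjusted p = 0.0121). The call was lost without non-target replicate 2 (adjusted p = 0.0838) or replicate 3 (0.0813), and with this alike pair merged (0.0814). CPT1B, the muscle form, stood at 8.82 ± 0.386 and 9.11 ± 1.68 FPKM (log2 fold change 0.03 ± 0.18 SE, adjusted p = 0.939), and its exons are shared with the CHKB-CPT1B readthrough gene. CPT1C was at most 0.072 FPKM. CPT2, the inner membrane partner, had a log2 fold change of -0.20 ± 0.18 (SE) and did not pass. Of 7 tested carnitine shuttle genes, 1 fell (CPT1A) and 0 rose, against 5.93% and 6.26% of all tested genes. The other 6 did not pass, the median was -0.01, and with the block 2 fell, against 11.8% of all genes. The smallest p among the shuttle genes other than CPT1A was that of the carnitine carrier SLC25A20 (4.55 ± 1.02 and 2.77 ± 1.31 FPKM, adjusted p = 0.216).

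**Figure D3:**
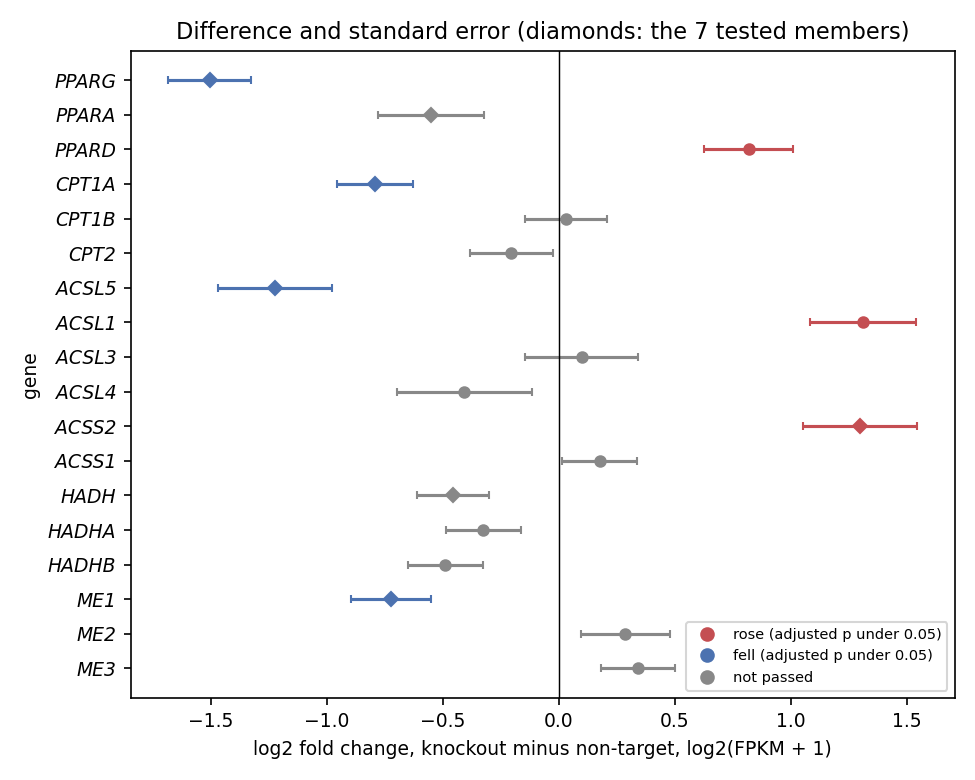
Log2 fold change, knockout minus non-target on the log2(FPKM + 1) scale, with its standard error, for the 7 tested genes (diamonds) and related genes (circles), colored by whether they passed the test. PPARD (0.82) lies opposite PPARG (-1.50) and ACSL1 (1.31) opposite ACSL5 (-1.22), while the bars of CPT1B and ACSL3 cross 0.

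HADH (chromosome 4, 108910870 to 108956397, plus strand), the mitochondrial dehydrogenase of the third step of beta-oxidation for shorter chains, stood at 27.3, 31.0 and 29.5 FPKM in non-target and 19.5, 20.7 and 23.1 FPKM in knockout libraries 1, 2 and 3. The groups did not overlap, and the means were 29.3 ± 1.87 and 21.1 ± 1.81 FPKM (SD, n = 3). The log2 fold change, -0.46 ± 0.15 (SE; limma, adjusted p = 0.0927), did not pass. It passed with a replicate block (adjusted p = 0.0345) and with libraries rescaled to the same total (0.0498). The block left the change as it was and gave a larger SE (0.172 against 0.155), so its smaller p does not come from less spread. Of 17 tested genes of mitochondrial beta-oxidation, 4 fell and 0 rose, against 5.93% and 6.26% of all tested genes. The other 13 did not pass, the median was -0.45, and with the block 8 fell, against 11.8% of all genes. The number that fell was 1 without any single non-target library, without knockout replicate 2, or with non-target replicates 2 and 3 merged, and 2 with no filter. Those that fell were ACAA2, the thiolase of the last step, from 69.6 ± 14.0 to 22.7 ± 2.97 FPKM, the medium-chain dehydrogenase ACADM from 23.2 ± 2.06 to 13.2 ± 3.58, and the electron carriers ETFA, from 107.6 ± 11.6 to 64.8 ± 7.91, and ETFDH, from 5.60 ± 0.568 to 2.93 ± 0.823. ACAA2 passed under all alternatives (adjusted p up to 0.0107). The other 3 each lost the call under 5 to 7 alternatives, among them leaving out any 1 of the non-target libraries, or knockout replicate 2, with adjusted p up to 0.163. ACADM and ETFDH share exon bases with neighbouring genes. HADHA and HADHB, the subunits of the trifunctional protein that does the same step on long chains, had log2 fold changes of -0.32 ± 0.16 and -0.49 ± 0.16 (SE) and did not pass.

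In peroxisomes, where very long and branched chains are shortened, 3 of 11 tested genes fell and 0 rose (8 did not pass), with a median of -0.17. Over all tested genes 5.93% fell and 6.26% rose. PECR, a trans-2-enoyl-CoA reductase, went from 14.3 ± 8.50 to 5.23 ± 0.847 FPKM (SD, n = 3), the multifunctional enzyme HSD17B4 from 48.2 ± 5.80 to 27.2 ± 5.79 and the racemase AMACR from 2.81 ± 0.586 to 1.22 ± 0.0896. Each of the 3 lost the call under some alternatives (2 to 7 of them, adjusted p up to 0.162), and 0 of the list fell without knockout replicate 2 or without non-target replicate 3. The number was 1 without non-target replicate 1, without knockout replicate 3, or with the filter at a mean of 5 FPKM. PECR was 24.0 FPKM in non-target replicate 1, against 8.46 and 10.4 FPKM in replicates 2 and 3. In ketone body synthesis and use, 2 of 8 tested genes fell and 0 rose, against 5.93% and 6.26% of all tested genes. The other 6 did not pass, the median was -0.03, and with the block 1 rose, against 13.5% of all genes. BDH2, a short-chain dehydrogenase, stood at 4.004, 3.06 and 3.41 FPKM in non-target and 0.647, 1.12 and 1.30 FPKM in knockout libraries 1, 2 and 3 (log2 fold change -1.16 ± 0.18 SE, adjusted p = 0.00285). OXCT1, the enzyme that lets cells use ketone bodies, went from 25.8 ± 0.606 to 16.7 ± 0.541 FPKM, and lost the call under 5 alternatives (adjusted p up to 0.169), among them leaving out any 1 non-target library or knockout replicate 2. Exons of BDH2, OXCT1, PECR and AMACR overlap those of SLC9B2, OXCT1-AS1, MREG and C1QTNF3-AMACR, so reads there are uncertain. Some genes of the lists are not reported here and are in none of these counts.

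ME1 (chromosome 6, 83920121 to 84140770, minus strand), the cytosolic malic enzyme that makes NADPH for fat synthesis and a known PPAR and NRF2 target, fell. It stood at 35.6, 29.1 and 28.2 FPKM in non-target and 21.1, 17.3 and 16.6 FPKM in knockout libraries 1, 2 and 3. Replicate 1 was the highest in each group and the groups did not overlap. The mean went from 31.0 ± 4.04 to 18.4 ± 2.44 FPKM (SD, n = 3). This was a change of -0.72 ± 0.17 on the log2 scale (SE; limma, adjusted p = 0.0232). The call was lost in 6 of 16 alternatives, which were leaving out any single library except knockout replicate 1 and the merged non-target replicates 2 and 3 (adjusted p = 0.0607 to 0.0841). The mitochondrial forms ME2 and ME3 had log2 fold changes of 0.29 ± 0.19 and 0.34 ± 0.16 (SE) and did not pass. ME1 made up 63.5% ± 1.30 of the summed malic enzyme level in non-target and 45.0% ± 2.31 in knockout. Of 11 genes that supply NADPH or cytosolic acetyl-CoA, 1 rose (ACSS2) and 2 fell, against 6.26% and 5.93% of all tested genes. The other 8 did not pass, with a median of 0.05 over the list. With the block 2 rose and 3 fell, against 13.5% and 11.8% of all genes. Beside ME1 the other that fell in the reported fit was IDH1, cytosolic isocitrate dehydrogenase (47.7 ± 6.03 to 20.2 ± 0.805 FPKM, adjusted p = 0.00107), which passed under all 16. Exons of IDH1 overlap those of IDH1-AS1.

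FABP1 (chromosome 2, 88422501 to 88427581, minus strand), the fatty acid carrier of liver and enterocytes and a classic PPAR alpha target, was listed in 1 library, at 0.169 FPKM in non-target replicate 2, and was missing from the other 5. It did not pass the filter on low values, so no fold change is given. Of 9 lipid-binding chaperones, FABP5 and the acyl-CoA binder DBI were high enough to test and neither passed. FABP5, the epidermal form, made up 95.8% ± 1.83 of the summed FABP1 to FABP7 level in non-target and 95.8% ± 2.34 in knockout. DBI had a log2 fold change of -0.15 ± 0.19 (SE, adjusted p = 0.690).

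Genes known as PPAR targets in liver, fat or gut included the fatty acid transporter CD36 and the mitochondrial carrier UCP2, which fell. Among 17 tested the fallers numbered 8, and 1 rose, against 5.93% and 6.26% of all tested genes. The other 8 did not pass, and the median log2 fold change was -0.61. With the block 10 fell and 1 rose, against 11.8% and 13.5% of all genes in that fit. The number that fell was 4 without non-target replicate 2, and 5 without non-target replicate 1, non-target replicate 3, or either of knockout replicates 2 and 3. It was also 5 with non-target replicates 2 and 3 merged and with a filter at a mean of 5 FPKM, which tests fewer genes. PDK4, a kinase that holds back glucose oxidation and 1 of the 8 that fell, lost the call under 8 of the 15 alternatives in which it was tested (limma, adjusted p up to 0.176). The list shares CPT1A and ME1 with the 8 genes, and of those that fell also ACAA2 and ACADM with the list of mitochondrial beta-oxidation. CD36 stood at 8.88, 14.0 and 12.7 FPKM in non-target and 0.767, 1.44 and 1.61 FPKM in knockout libraries 1, 2 and 3, a change of -2.50 ± 0.23 on the log2 scale (SE; limma, adjusted p = 0.000144). UCP2 stood at 1.85, 2.08 and 1.77 FPKM and at 0.233, 0.168 and 0.196 FPKM (-1.27 ± 0.13 SE, adjusted p = 0.000299). CD36 and UCP2 passed under all alternatives in which they were tested. The riser was ACSL1. The lipid droplet genes PLIN1, PLIN2, PLIN4 and PLIN5 and the transport lipase LPL were too low to test.

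**Figure D4:**
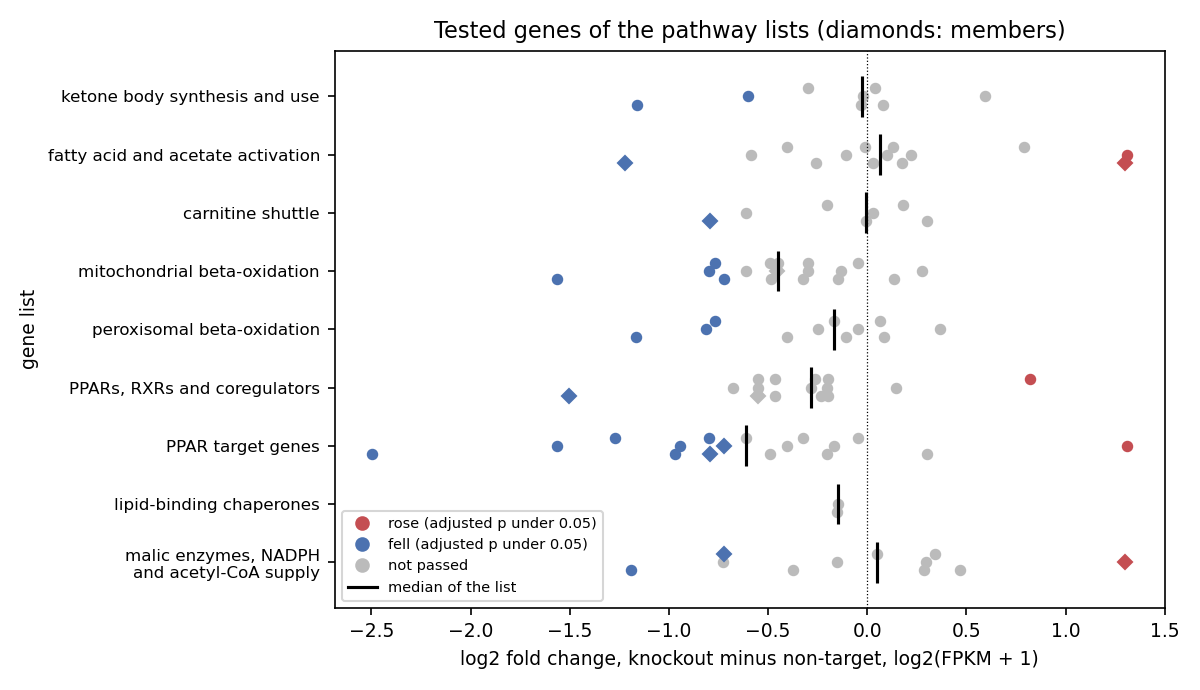
Log2 fold change, knockout minus non-target on the log2(FPKM + 1) scale, of each tested gene in 9 pathway lists, colored by whether it rose, fell or did not pass, with diamonds for the 7 tested genes of the set and a bar at the list's median. The medians lie between -0.61 (PPAR targets) and 0.06 (fatty acid and acetate activation), and the lowest point plotted is CD36 at -2.50.

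Across the 9 lists without the 8 genes themselves, 82 genes were tested, and 14 fell (17.1%), 2 rose (2.44%) and 66 did not pass, against 5.93% and 6.26% of all genes. Their median log2 fold change was -0.20, against 0.02 over all genes tested. The lists were chosen with earlier results of these data known, so these differences are a description and not independent evidence. Knockout values lay below all non-target values in 25 (30.5%) and above in 5 (6.1%), against 15.7% and 16.5% of all tested genes. With the block 25 fell and 5 rose, against 11.8% and 13.5% of all genes in that fit. Leaving out 1 library changed the number that fell to between 7 and 15. The number of these pathway genes was 7 without knockout replicate 2 and without either of non-target replicates 1 and 3, and 8 without non-target replicate 2. In the same fits the number that fell over all tested genes moved too, to between 500 and 929, against 777 with all libraries.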

How the data were processed

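Per the labels' protocols, LoVo RNA was selected for poly-A tails and made into dUTP libraries. Per the submitters' processing notes, reads were aligned to hg19 with TopHat2 2.1.1 and the authors' deposited FPKM values came from STAR 2.7.10b. Strand use in counting and the handling of shared fragments are not given in the sources used here. Symbols missing from a library were set to 0, and 89.0% of symbols were found in GENCODE for GRCh37. Depth was estimated from the step on which low values gather in genes of 1 transcript, on which 72 to 102 of 689 to 813 low values lay per library, so it is approximate, and no counts were recovered or counting interval given.

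Groups were compared with limma 3.58.1 (R 4.3.3) on log2(FPKM + 1), with trend and robust options. Genes entered with 1 FPKM or more in 3 or more of the 6 libraries. It was two-sided, Benjamini-Hochberg adjusted over all 13092 genes, threshold 0.05. This scale understates the change of low genes. The limma script was tested on simulated data with known changes. Members and lists were chosen with earlier results of these data known. Named genes are the members, their isoforms and, per list, up to 4 others that passed with the largest change, or the smallest p where none passed. Isoforms other than PPARD, CPT1B, CPT1C and CPT2, and low genes, were named after their values were seen. Some genes that meet the rule are not reported here.

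Replicate numbers are shared between groups. Same-numbered libraries deviated together from their group means (correlations across genes of 0.547, 0.309 and 0.331), all above 0.1, so blocked values are given where they change a call. Numbers 2 and 3 correlated about as much when swapped (0.32 for non-target 2 with knockout 3, 0.321 for non-target 3 with knockout 2), so the number sets apart replicate 1 alone. The reported fit has no block, as designed. The block fit gave the tested members much the same SE (0.1717 for HADH to 0.1743 for ACSS2, with PPARA at 0.1963). Its p-values thus lean on a spread shared over genes, and the block is not a stricter test than the reported fit. Alternatives were pseudocounts of 0.1 and 0.5, a filter at a mean of 5 FPKM or none, TPM and median-ratio scaling, limma without trend, a replicate block, non-target replicates 2 and 3 as 1 sample, and leaving out each library. Leaving out both replicate 1 libraries was added after seeing the data.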

Additional observations from a re-analysis of the deposited data

How the results depend on the processing

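None of the 7 tested genes changed direction under any of 111 values from the alternatives, and 99 kept their side of the threshold. Of the rest, 9 lost the call (CPT1A 3, ME1 6) and 3 gained it (HADH 2, PPARA 1). With a replicate block, whose p-values lean on a spread shared over genes, 6 of the 7 fell and no call was lost. Those that fell numbered 2 with non-target replicates 2 and 3 as 1 sample, and 2 to 4 when 1 library was left out. ACSS2 rose under all 16 alternatives. Among the other pathway genes 25 fell and 5 rose with the replicate block, 9 and 1 with non-target replicates 2 and 3 as 1 sample, and a mean of at least 5 FPKM, which leaves fewer genes, gave 7 that fell. TPM scaling gave 1 that rose, and leaving out both replicate 1 libraries gave 4. Leaving out 1 library gave 7 to 15 that fell and 1 to 3 that rose. Over all tested genes 500 to 929 fell and 411 to 1041 rose in those fits, against 777 and 820 with all libraries. The cause of these shifts was not tested. HADH and PPARA did not pass with 3 libraries per group, and whether more libraries would change this was not tested. FABP1 was too low to measure.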

Other observations

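The genes whose patterns over the 6 libraries lay nearest to PPARG, by the mean absolute difference of log2(FPKM + 1) after subtracting each gene's own mean, were the complement factor CFI (0.063), the thiolase ACAA2 (0.0696) and the surface peptidase DPP4 (0.0794). DPP4 stood at 33.4, 26.1 and 27.0 FPKM in non-target and 11.2, 10.04 and 8.16 FPKM in knockout libraries 1, 2 and 3. CFI was low, at 1.68 to 2.28 FPKM in non-target and at most 0.101 FPKM in knockout. Nearest to ACSS2 were the immune checkpoint gene VSIR (0.0684), ANKRD19P (0.0712) and the fatty acid epoxygenase CYP2J2 (0.0714). CYP2J2 stood at 10.02, 5.93 and 5.25 FPKM in non-target and 22.8, 16.3 and 17.5 FPKM in knockout. In each of these genes replicate 1 was the highest library of its group. The likeness was chosen over all 13092 tested genes and is a description, with no test.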
